A study of Rattus norvegicus with 4 samples.

Results

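Cyclins, cyclin-dependent kinases (Cdks) and Cdk inhibitors were followed in 4 RNA-seq libraries of rat ear skin. The members are the protein-coding rows of the count table whose symbol follows the pattern of a cyclin (Ccn and a letter, with or without a digit), a numbered Cdk, or an inhibitor of the Cdkn1 or Cdkn2 series. There were 50 of them among 54532 listed genes. By textbook role, 15 were cell-cycle cyclins and kinases, 14 were cyclins and kinases of transcription, 7 were Cdk inhibitors, and 14 belonged to neither side.

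The libraries came from 2 Sprague Dawley rats (SD in the labels). One ear of each rat was injected with AAV-Fgf7, an adeno-associated virus carrying fibroblast growth factor 7, a factor that acts on epithelial cells. The other ear received control virus (AAV-control), and the skin was taken on day 3. The labels give the control ears the genotype wt and the treated ears Fgf7 overexpression. The sample titles name the same 2 rats in both groups, so both groups consist of the same 2 animals. The promoter of the transgene, and the age and sex of the rats, were not given in any source used here.

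A cyclin is the regulatory subunit that switches on its Cdk, and the level of several cyclins swings through the division cycle. D-type cyclins with Cdk4 or Cdk6 act in G1, cyclins E and A with Cdk2 in S phase, and cyclins A and B with Cdk1 in mitosis. The cyclin and Cdk pairs of transcription act mainly on RNA polymerase II or its cofactors and are found in most cells. In epidermis, dividing cells lie mainly in the basal layer and the hair follicle, and cells that differentiate leave the cycle.

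Sequencing depth was even, with totals of 1299136 (rat 1) and 1601321 (rat 2) counts for control virus and 1433247 (rat 1) and 1417294 (rat 2) for AAV-Fgf7. Values below are given with rat 1 first. Fgf7 itself, read as a check of the labels, had 94 and 110 raw counts under control virus and 454 and 1429 under AAV-Fgf7. Basal keratinocyte markers were present, with summed levels of 1244 and 1151 CPM (counts scaled to a common library size) in controls against 1914 and 3677 CPM in AAV-Fgf7 skin. Skeletal muscle markers summed to 14818 and 61478 against 32464 and 15634 CPM, and hair follicle markers to 56.9 and 1208 against 3951 and 156 CPM. Both lists thus varied widely within each group. Decorin (Dcn) and lumican (Lum), defining transcripts of dermal fibroblasts, had 0 counts in every library, as did filaggrin (Flg). The rat reads are listed under mouse gene models, so a count of 0 in these files does not show that a transcript was absent.

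No member was called between AAV-Fgf7 and control ears. Over the 4 libraries the coefficient of variation of the tested members ran from 1.26% (Cdk16) to 68.7% (Ccna2), with a median of 16.1% where counting error alone gives 8.78%. Of the 50 members, 26 had enough counts to be tested, 15 had some counts but fell below the filter, and 9 had none. The edgeR quasi-likelihood test called 0 of the 26 at an adjusted p under 0.05, where it called 0% of the 6370 genes tested. It did not call Fgf7 itself, which was 4.49 times its control in rat 1 and 13.5 times in rat 2. The edgeR unadjusted p of Fgf7 was 0.00100 and its adjusted p 0.9996. A lack of calls therefore says little about the members. At an unadjusted p under 0.05 there was 1 member, the cyclin A gene Ccna2, beside 2.32% of all genes, of which those higher with AAV-Fgf7 made up 1.71% and those lower 0.612% of the genes tested. DESeq2 called 0 members and 0.0628% of all genes, and limma-voom called 0 members and 0%. At an unadjusted p under 0.05 each again had Ccna2 alone, beside 1.32% of genes by DESeq2 and 2.06% by limma-voom. Fitted differences are given as log2 fold changes of AAV-Fgf7 over control, with a standard error (SE). They were positive for 13 tested members (47.8% of all genes) and negative for 13 (52.2% of all genes), with a median of -0.01 beside -0.02 over all genes tested. The AAV-Fgf7 libraries both exceeded the higher control for 5 members, where 14.8% of all genes did so, and both lay under the lower control for 5, where 13.3% did. These 10 non-overlapping members stand beside 28.1% of all genes, and 16 members overlapped between the groups.

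**Figure D1:**
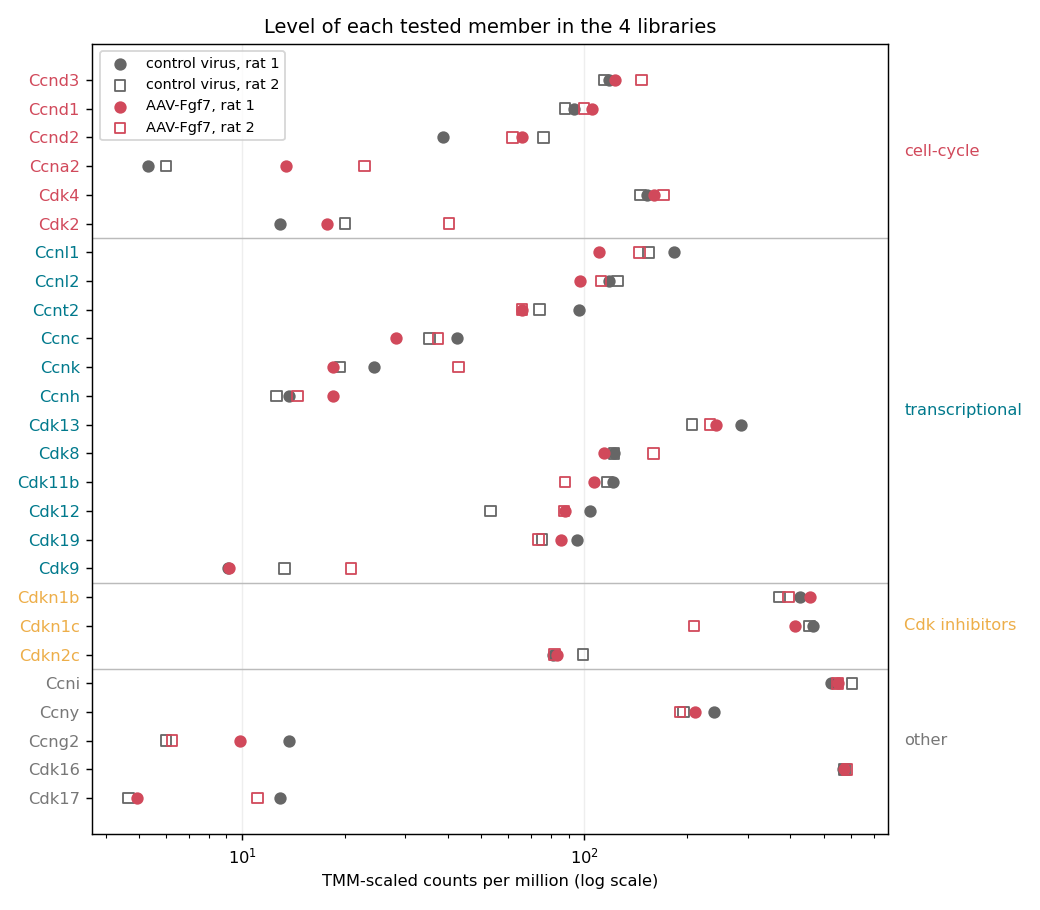
TMM-scaled CPM (log axis) of the 26 tested members in each library; circles are rat 1 and squares rat 2, grey the control and red the AAV-Fgf7 ear. For Ccna2 both red points lie right of both grey ones, at 13.4 and 22.8 against 5.32 and 5.99 CPM, whereas the 4 points of Cdk16 coincide between 570 and 586 CPM.

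The tested cell-cycle members all had values on the higher side in AAV-Fgf7 ears, most of them by little. All 6 log2 fold changes were positive (median 0.20, range 0.15 to 1.66), beside all genes tested, of which 47.8% were positive. For 4 of the 6 both AAV-Fgf7 libraries exceeded the higher control, beside 14.8% of all genes. Only Ccna2 had an interval that did not include 0. Its control counts alone would not have passed the low-count filter. Ccna2 was therefore tested only through its treated ears and adds no independent support to these counts. A transcript level in bulk skin does not tell more cells of a type from more RNA per cell. Summed over all 15 members, tested or not, the group summed to 428 and 455 CPM under control virus and to 492 and 557 CPM under AAV-Fgf7. The AAV-Fgf7 ear thus held 1.15 times the control level in rat 1 and 1.22 times in rat 2. Without the control library of rat 1 the count of positive values was 5 of 6, with Ccnd2 at -0.25.

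D-type cyclins carry growth-factor signals to Cdk4 and Cdk6, and all 3 were well counted. Ccnd1 (cyclin D1) measured 93.4 and 87.9 CPM in controls against 105 and 99.7 CPM in treated ears. Both treated ears were above both controls by a narrow margin, 1.13-fold in each rat. Its log2 fold change was 0.18 (SE 0.22), and the 95% interval of the fold ran from 0.78 to 1.63. Ccnd3 (cyclin D3) measured 118 and 114 against 123 and 147 CPM, with a log2 fold change of 0.22 (SE 0.21). Here the higher ear was that of rat 2. Ccnd2 (cyclin D2) was lowest in the control ear of rat 1, at 38.7 CPM, and highest in the control ear of rat 2, at 75.9 CPM. Its AAV-Fgf7 libraries lay between them at 65.7 and 61.6 CPM, so the groups overlapped. Per length, in the authors' FPKM, Ccnd1 made up 46.9% to 53.1% of the D-type total in the 4 libraries, Ccnd3 32.3% to 37.6% and Ccnd2 11.0% to 20.3%. Per length, cyclin D1 was the leading D-type transcript in every library, whereas by CPM Ccnd3 exceeded Ccnd1 in every library. The order therefore rests on the lengths of the mouse gene models. The widest swing in share was that of Ccnd2 between the control ears.

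Cdk4, the kinase partner of the D-type cyclins, was the most abundant cell-cycle member. Its level was 152 and 146 CPM with control virus and 160 and 170 CPM with AAV-Fgf7. All 4 libraries lay within a narrow band in which the treated ears were the higher pair. The log2 fold change was 0.15 (SE 0.19), with a fold interval of 0.80 to 1.52. That interval reflects the spread between these 4 libraries only and sets no firm limit on the difference. Cdk6, the other partner, had 0 and 0 against 3 and 1 raw counts, none above the limit of 3 that a count of 0 allows, and no fold is given.

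Cyclin E and Cdk2 act at entry into S phase. Cdk2 measured 12.9 and 20.0 CPM in controls against 17.7 and 40.2 CPM in treated ears. Its AAV-Fgf7 library of rat 2 was the highest, while that of rat 1 lay between the controls. Within a rat the ratio was 1.37 in rat 1 and 2.01 in rat 2, and the log2 fold change was 0.81 (SE 0.51, edgeR unadjusted p = 0.167). Without the AAV-Fgf7 library of rat 2 that value was 0.10. The cyclin E genes fell below the filter. Ccne2 had 8 and 4 raw counts in controls against 0 and 11 in treated ears, and Ccne1 had 2 and 0 against 0 and 6. Both were highest in rat 2's treated ear and at 0 in rat 1's.

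Ccna2 encodes cyclin A2, which partners Cdk2 in S phase and Cdk1 later in the cycle. It was the member with the largest fold change among those tested. Reads counted to it numbered 7 and 9 under control virus and 19 and 33 under AAV-Fgf7, or 5.32 and 5.99 against 13.4 and 22.8 CPM. The gene passed the low-count filter only through its treated ears, so its place among the tested members depended on their higher counts. Each treated ear exceeded the controls, by 2.52 times its own control in rat 1 and 3.81 times in rat 2. The log2 fold change was 1.66 (SE 0.51), with a fold interval from 1.34 to 7.52. The edgeR unadjusted p was 0.0170 and the adjusted p over all 6370 genes 0.9996. Over the 13 alternative fits of this gene the unadjusted p ran from 0.00751 to 0.141 and the adjusted p from 0.497 upward. Leaving out rat 2's treated ear gave a log2 fold change of 1.23 at an unadjusted p of 0.141. In FPKM, Ccna2 was 0.627 and 0.457 of the Cdk2 level in controls against 1.16 and 0.867 of it in treated skin. Its row carries ENSMUSG00000027715, minus strand of mouse chromosome 3, from 36564865 to 36572150, in a mouse build that no source used here names.

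Keratinocyte transcripts and those of dividing cells varied across the same libraries as Ccna2. Basal keratinocyte markers, whose sums are given above, were 1.54 times the control level in the AAV-Fgf7 ear of rat 1 and 3.19 times in that of rat 2. In rat 1 the keratin genes Krt14 and Krt5 and the stratifin gene Sfn carried the higher sum, while Krt15 (380 against 330 CPM), Itga6, Itgb4 and Col17a1 were slightly lower in the treated ear. Suprabasal markers, mostly Krt10, summed to 913 and 586 CPM in controls against 859 and 2580 CPM, a ratio of 0.942 in rat 1 and 4.40 in rat 2. All 7 tested basal genes had positive log2 fold changes (median 0.90), beside 47.8% of all genes. In 4 of the 7 both treated ears lay above both controls, while Krt15, Itga6 and Itgb4 overlapped. The control counts of Itgb4, 15 and 11, would not have passed the low-count filter alone. The proliferation list, which holds genes of replication and mitosis, summed to 57.7 and 33.9 CPM in controls against 98.2 and 148 CPM in treated ears. Among its 6 tested genes the median log2 fold change was 1.13. In 5 of them both treated ears lay above both controls, beside 14.8% of all genes. None of the 6 would have passed the low-count filter on its control libraries alone. Passing thus depended on the treated ears, which favours positive values, and neither figure counts as support for a rise. The spindle motor gene Kif11 stood at 2.01 (SE 0.53), the kinesin gene Kif20a at 2.35 (SE 0.68), the replication clamp gene Pcna at 0.97 (SE 0.47) and the helicase gene Mcm2 at 0.89 (SE 0.47). None of these was called by edgeR over all genes. Not every gene of the list was higher in treated ears. Plk1 overlapped at 7.59 and 0 against 3.53 and 7.62 CPM, and the untested Bub1 at 5.32 and 5.32 against 4.24 and 6.92 CPM. Top2a, also untested, was higher in both treated ears, at 4.56 and 2.66 against 7.06 and 21.5 CPM. Mki67 had 0 and 0 against 0 and 1 raw counts, and Aurka and Aurkb had 0 throughout. The part of these markers in the Ccna2 values was not tested.

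Mitotic members were hardly counted at all. Cdk1, the kinase that drives entry into mitosis, had 1 and 1 raw counts in controls against 1 and 5 in treated ears. Of the B-type cyclins that partner it, Ccnb1 had 0 and 0 against 2 and 0, and Ccnb2 and Ccnb3 had 0 in every library. Ccnf (cyclin F, an F-box protein that does not activate a Cdk) had 0 and 0 against 1 and 1, and Ccna1, the germ-cell cyclin A, had 0 and 2 against 2 and 0. A count of 3 corresponds to 2 to 2.28 CPM in these libraries, for counting error only, and differences at this depth were not detectable. Rows listed as Ccnb1-ps and Ccnb2-ps, mouse pseudogenes of cyclin B, also held 0 counts, so those rows did not take such reads.

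**Figure D2:**
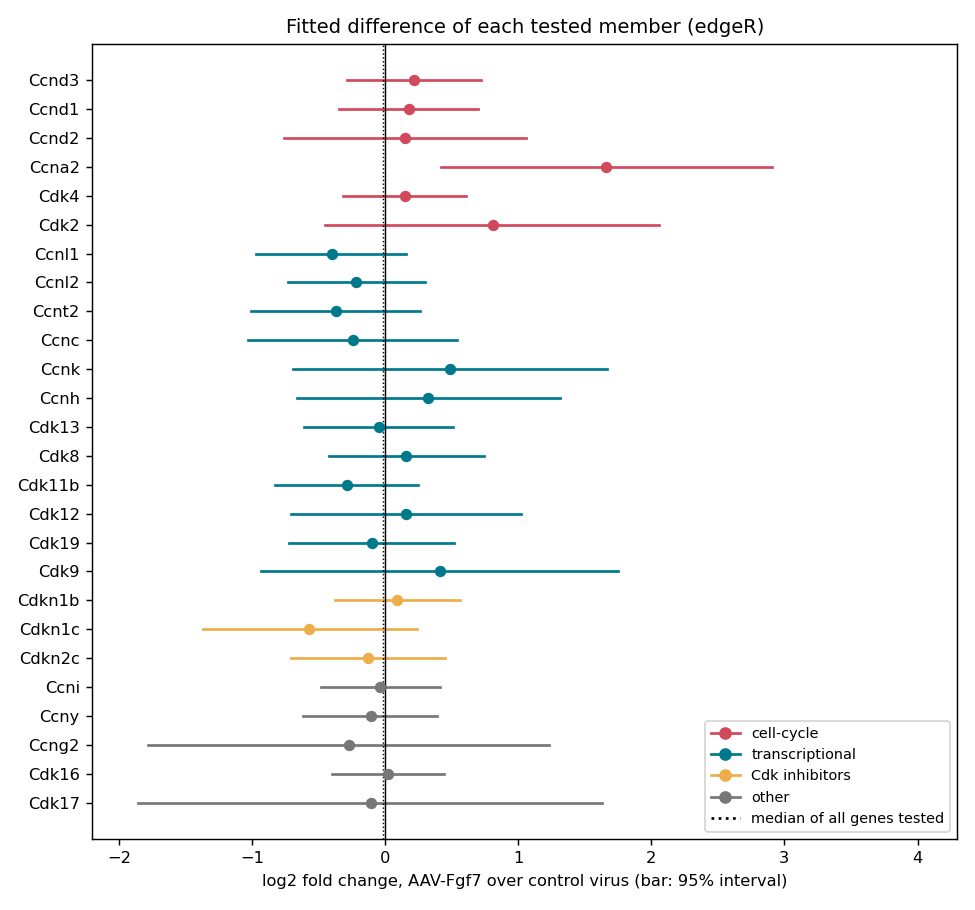
Log2 fold change of AAV-Fgf7 over control (points) with its 95% interval (bars) for the 26 tested members, coloured by role; the dotted line is the median of all genes tested, -0.02. The interval of Ccna2 (0.42 to 2.91) is the one that leaves out 0, and the widest intervals are those of the thinly counted Cdk17 and Ccng2.

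Promoter sequence was read for the members from a RefSeq table of the rat assembly GRCr8, which gives 250 bases before and 50 after each gene's start. It held 45 windows for 41 of the 50 symbols. Ccna2 had no entry. Exact matches were counted on both strands to the E2F letters TTTCCCGC, TTTGGCGC, TTTCGCGC and TTTGCCGC, to the cell-cycle homology region (CHR) letters TTTGAA and TTCGAA, and to CCAAT, the box bound by NF-Y. These motifs are known from promoters of cell-cycle genes, among others. Among 10 windows of cell-cycle members, 1 held E2F letters (2.14% of all 33469 promoter windows did), 3 held CHR letters (19.7% of all) and 6 held CCAAT (37.5% of all). Of the 12 windows of transcriptional members, 0 held E2F letters, 0 held CHR letters and 7 held CCAAT. A match describes letters and is not a binding site.

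These windows are shown because they contrast a mitotic kinase, the S phase kinase with the larger ratio in rat 2, and a cyclin of transcription. Each runs 5′ to 3′ along its gene, with the matched letters in capitals. Cdk1 (chr20:19265043-19265342, plus strand) held 1 E2F match, 2 CHR matches and 3 CCAAT matches, the last on the minus strand. Cdk2 (chr7:1721829-1722128, minus strand) and Ccnk (chr6:132854732-132855031, plus strand) held 1 CCAAT match each, 113 and 120 bases before the start at their nearer edge.
Cdk1: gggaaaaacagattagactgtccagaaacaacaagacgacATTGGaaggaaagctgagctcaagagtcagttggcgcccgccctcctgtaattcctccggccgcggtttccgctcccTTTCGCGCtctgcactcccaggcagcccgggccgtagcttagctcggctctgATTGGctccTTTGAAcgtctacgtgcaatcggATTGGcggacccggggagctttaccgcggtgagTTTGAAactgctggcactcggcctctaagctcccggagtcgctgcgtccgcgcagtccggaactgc
Cdk2: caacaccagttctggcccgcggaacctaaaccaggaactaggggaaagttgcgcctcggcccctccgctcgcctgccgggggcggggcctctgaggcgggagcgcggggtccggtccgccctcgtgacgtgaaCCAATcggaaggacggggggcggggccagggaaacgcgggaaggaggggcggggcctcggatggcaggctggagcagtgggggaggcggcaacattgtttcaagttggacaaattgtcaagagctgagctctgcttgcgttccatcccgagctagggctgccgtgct
Ccnk: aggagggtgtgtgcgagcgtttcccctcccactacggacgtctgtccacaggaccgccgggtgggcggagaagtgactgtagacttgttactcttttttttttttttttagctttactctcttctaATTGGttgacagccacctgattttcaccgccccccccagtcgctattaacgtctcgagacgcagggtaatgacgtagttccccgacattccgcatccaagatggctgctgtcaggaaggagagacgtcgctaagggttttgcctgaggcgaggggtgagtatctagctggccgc
Cdk1, the window with all 3 kinds of match, is also the kinase with 8 counts over the 4 libraries, so its transcript values say little about it.

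Cdk inhibitors did not pass the test either, and 1 of them differed mainly in a single library. The Cip/Kip proteins bind cyclin and Cdk pairs, and 2 of the 3 genes were well counted. Cdkn1c, which encodes p57, was the most abundant member per length, at a mean of 185 FPKM over the 4 libraries. It measured 465 and 454 CPM in controls against 412 and 209 CPM in treated ears. Both treated ears were below both controls, but the gap in rat 1 was small (ratio 0.886) and that in rat 2 large (ratio 0.461). The log2 fold change was -0.57 (SE 0.33, edgeR unadjusted p = 0.136). Leaving out rat 2's treated ear gave -0.16, and leaving out rat 1's gave -1.13. The fibroblast marker sum, mostly the collagen genes Col1a1 and Col3a1, was also lowest in the treated ear of rat 2. It was 34318 and 39390 CPM in controls against 40077 and 27379 CPM. In the same list Col1a2 was below both controls in both treated ears, at 707 and 715 against 547 and 338 CPM. Fbn1 was 219 and 278 against 220 and 217 CPM. Pdgfra was highest in the treated ear of rat 2, at 15.9 and 16.0 against 16.2 and 17.3 CPM. The part of fibroblast content in the Cdkn1c value was not tested.

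Cdkn1b, which encodes p27, an inhibitor of resting cells, measured 427 and 372 CPM with control virus and 455 and 395 CPM with AAV-Fgf7. The groups overlapped, although each treated ear was 1.06 times its own control. The log2 fold change was 0.09 (SE 0.19), with a fold interval from 0.77 to 1.47. In FPKM the ratio of Cdkn1c to Cdkn1b was 2.43 and 2.72 in controls against 2.02 and 1.18 in treated ears. Cdkn1a, which encodes the p53 target p21, had 0 counts in all 4 libraries.

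Ink4 proteins bind Cdk4 and Cdk6 alone, and only Cdkn2c (p18) among them was tested. Levels were 81.2 and 99.2 CPM in controls against 83.3 and 81.7 CPM in treated ears. The control ear of rat 2 was the highest, and the others were nearly equal. The log2 fold change was -0.13 (SE 0.24). Cdkn2d had raw counts of 5 and 0 against 3 and 1, and Cdkn2a and Cdkn2b had 0 throughout. The median of the 3 tested inhibitors was -0.13.

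Cyclins and kinases of transcription had no common direction. Of 14 such members 12 were tested, 5 with positive and 7 with negative log2 fold changes (median -0.07, range -0.40 to 0.49). One lay above both controls in both treated ears, beside 14.8% of all genes, and 4 lay below, beside 13.3%. Their sum was 1219 and 1006 CPM with control virus and 984 and 1081 CPM with AAV-Fgf7, a ratio of 0.807 in rat 1 and 1.07 in rat 2. The rats thus differed in direction for the transcriptional sum, whereas for the cell-cycle sum both ratios were above 1. The difference between the medians of these groups, 0.20 and -0.07, was not tested. Without the control library of rat 1 the transcriptional median was 0.12, and leaving out the control of rat 2 instead gave -0.25.

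Cyclin L proteins with Cdk11 act in splicing, and their 3 genes were the transcriptional members with values below both controls, together with Ccnt2. Ccnl1 measured 183 and 154 CPM in controls against 110 and 145 CPM in treated ears. The groups did not overlap, yet the AAV-Fgf7 ear of rat 2 was 0.941 of its own control. Its log2 fold change was -0.40 (SE 0.23, edgeR unadjusted p = 0.133). Ccnl2 stood at 118 and 125 against 96.8 and 112 CPM, or -0.22 on the log2 scale (SE 0.21). Cdk11b stood at 121 and 117 against 107 and 87.9 CPM, or -0.29 (SE 0.22). In this kinase the lower treated ear was that of rat 2, unlike in both cyclin L genes, where it was that of rat 1.

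P-TEFb, the pair of a cyclin T and Cdk9, releases paused RNA polymerase II. Ccnt2 measured 96.4 and 73.9 CPM in controls against 65.7 and 65.8 CPM in treated ears, with a log2 fold change of -0.37 (SE 0.26). The treated ears were equal and the control ears were not. Cdk9 was thinly counted, at 9.11 and 13.3 against 9.18 and 20.8 CPM, and its log2 fold change was 0.41 (SE 0.55). The kinase and its cyclin had values of opposite sign, and both intervals included 0. Ccnt1 had raw counts of 4 and 0 against 2 and 2.

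Cyclin K with Cdk12 or Cdk13 phosphorylates elongating polymerase. Ccnk measured 24.3 and 19.3 CPM with control virus and 18.4 and 42.9 CPM with AAV-Fgf7. Only the treated ear of rat 2 stood out, and its log2 fold change of 0.49 (SE 0.48) was -0.24 without that library. Cdk12 stood at 104 and 53.2 against 87.6 and 87.2 CPM, and Cdk13 at 286 and 206 against 242 and 233 CPM. For both kinases the extremes were the control ears and the treated ears lay between them. Without the control library of rat 1, Cdk12 stood at 0.71 on the log2 scale, and without that of rat 2 at -0.25.

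Mediator, the complex that joins enhancers to polymerase, carries cyclin C with Cdk8 or Cdk19. Cdk8 measured 122 and 122 CPM in controls against 114 and 159 CPM in treated ears, and Cdk19 at 94.9 and 75.2 against 85.5 and 73.4 CPM. Ccnc stood at 42.5 and 35.3 against 28.2 and 37.4 CPM. All 3 overlapped between the groups, with log2 fold changes of 0.16 (SE 0.24), -0.10 (SE 0.25) and -0.24 (SE 0.32). Cyclin H with Cdk7 belongs to the general factor TFIIH and also activates the cell-cycle Cdks. Ccnh, at 13.7 and 12.6 against 18.4 and 14.5 CPM, was the transcriptional member with both treated ears above both controls, and its log2 fold change was 0.32 (SE 0.40). Cdk7 had raw counts of 1 and 0 against 1 and 0.

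**Figure D3:**
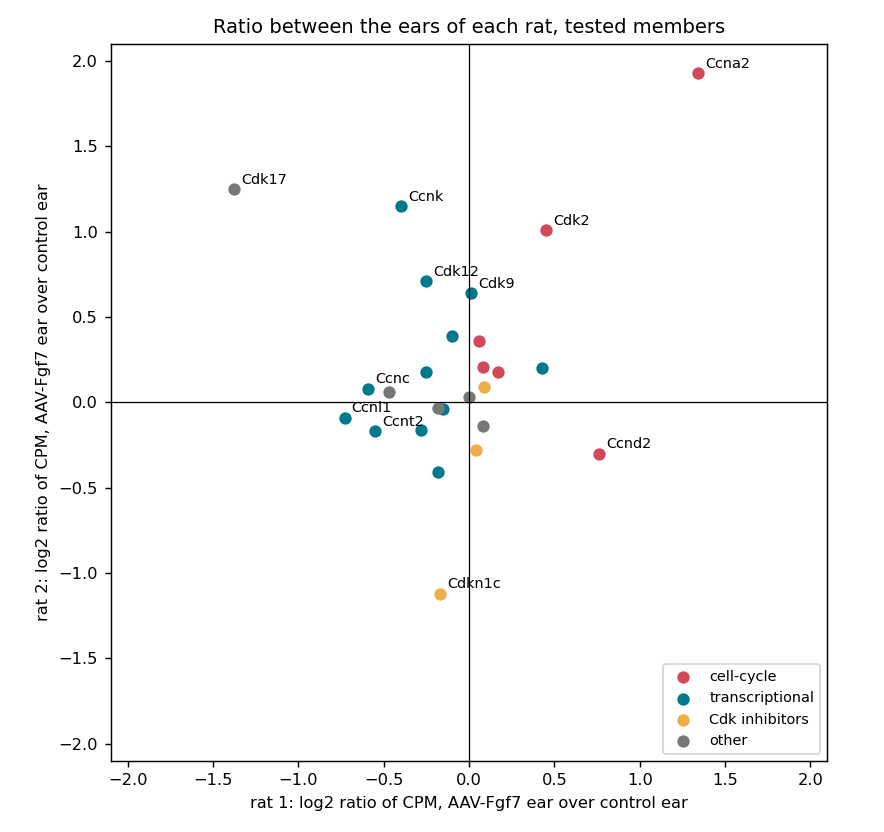
Log2 ratio of CPM between the AAV-Fgf7 and the control ear in rat 1 (horizontal) and rat 2 (vertical) for the 26 tested members, coloured by role. Ccna2 lies at the upper right (1.34 and 1.93), while Cdk17 (-1.38 and 1.25) and Ccnk (-0.40 and 1.15) lie on opposite sides of 0 in the 2 rats.

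Members outside both roles included the flattest transcripts of the family. Cdk16, a kinase activated by cyclin Y, measured 570 and 576 CPM with control virus and 572 and 586 CPM with AAV-Fgf7. Its coefficient of variation over the 4 libraries was 1.26%, below the 3.50% that counting error alone gives at its depth. Its log2 fold change was 0.02 (SE 0.17). Ccni, a cyclin related to the G type, stood at 524 and 606 against 552 and 549 CPM, and Ccny, the cyclin of Cdk16 and Cdk14, at 240 and 195 against 211 and 190 CPM. Neither separated the groups, with log2 fold changes of -0.04 (SE 0.18) and -0.11 (SE 0.21). Ccng2, a cyclin linked to cell-cycle exit, stood at 13.7 and 5.99 against 9.89 and 6.23 CPM. Cdk17 stood at 12.9 and 4.66 against 4.94 and 11.1 CPM, so the treated ear held 0.383 of the control level in rat 1 and 2.38 times it in rat 2. That swing rested on raw counts of 7 to 17.

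Untested members of this set were low. Cdk20 had raw counts of 8 and 9 against 14 and 8, and Cdk14 had 1 and 3 against 2 and 3. Cdk5, a kinase best known from neurons, had 2 and 1 against 3 and 1, Cdk10 had 0 and 3 against 0 and 0, and the p53 target Ccng1 had 0 and 1 against 1 and 0. Ccnj, Ccno, Cdk15 and Cdk18 had 0 counts in all 4 libraries.

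Levels of the tested members spanned a wide range per length. In the authors' FPKM, averaged over the 4 libraries, the order began with Cdkn1c (185 ± 57.6, SD, n = 4), Ccni (166 ± 10.2), Cdk16 (129 ± 1.58) and Cdkn1b (88.9 ± 7.75). It ended with Ccna2 (2.86 ± 1.96), Cdk9 (2.79 ± 1.17), Ccng2 (1.61 ± 0.654) and Cdk17 (1.35 ± 0.682). The first place did not hold in each library: in the treated ear of rat 2, Cdkn1c was at 101 FPKM, below Ccni at 163 and Cdk16 at 131. Of 25 neighbouring pairs in this order, 21 overlapped in their ranges over the libraries. The 4 clear steps lay below Ccni, Cdk16, Cdkn1b and Cdk4. How many rat reads each mouse model missed is not known, which limits any order of levels.

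Precision followed depth. Of the 26 tested members 17 had over 100 counts per library on average, and the largest absolute log2 fold change among these was 0.57, that of Cdkn1c. For 14 of the 17 the 95% interval lay within a factor of 2 in either direction. None of the other 9 had such an interval, and these include Ccna2, Cdk2, Ccnk and Cdk9. Between the ears of a rat, 9 tested members were higher in the AAV-Fgf7 ear in both rats, 7 were lower in both, and 10 differed in direction. The difference between group means of log2 CPM exceeded both within-group differences for 6 members, or 23.1%, beside 17.7% of all genes tested.

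Genes that act on cyclins and Cdks showed no called change. Of activators, phosphatases and kinases of Cdks, 3 of 13 listed genes were tested, all with positive log2 fold changes, and 0 were called. Over all genes tested, 47.8% were positive. Cdk5r1, the p35 activator of Cdk5, stood at 0.81 (SE 0.49), the inhibitory kinase gene Wee1 at 0.10 (SE 0.37) and the chaperone gene Cdc37 at 0.09 (SE 0.19). The control counts of Cdk5r1, 11 and 9, would not have passed the low-count filter alone. Cdk5r1 was therefore tested only through its treated ears and adds no independent support to the count of positive values. In the Rb and E2F family, whose repression D-type cyclin kinases lift, 8 of 20 were tested, with 7 positive values (median 0.21) and 0 called. E2f4, a repressor E2F, stood at 0.49 (SE 0.35), the histone-binding gene Rbbp4 at 0.25 (SE 0.19), and the E2F partner genes Tfdp1 at -0.33 (SE 0.28) and Tfdp2 at 0.29 (SE 0.37).

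Ubiquitin ligases destroy cyclins and inhibitors. Of 20 listed genes of this machinery 11 were tested, 10 with positive values (median 0.11), beside 47.8% of all genes, and 0 were called. The rats differed in direction: the median log2 ratio of AAV-Fgf7 over control ear was 0.37 in rat 1 and -0.11 in rat 2. For 9 of the 11 genes the groups overlapped, so the count of positive values does not show a rise shared by both rats. Skp2, Fbxo5, Anapc11 and Ube2c had 0 counts in every library. Ube2s, a conjugating enzyme of the anaphase-promoting complex, stood at 0.41 (SE 0.35), and its subunit genes Cdc23, Anapc5 and Anapc2 at 0.22 (SE 0.30), 0.11 (SE 0.23) and 0.13 (SE 0.28). Partners of the transcriptional kinases had 14 of 18 genes tested, 8 positive and 6 negative (median 0.09), with 0 called. Among them the TFIIH subunit gene Gtf2h1 stood at 0.37 (SE 0.22), the Mediator gene Med13 at -0.25 (SE 0.19), and the elongation factor genes Ell and Supt5 at 0.55 (SE 0.46) and 0.22 (SE 0.19). The medians of these lists lay between 0.09 and 0.21, beside -0.02 over all genes tested.

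**Figure D4:**
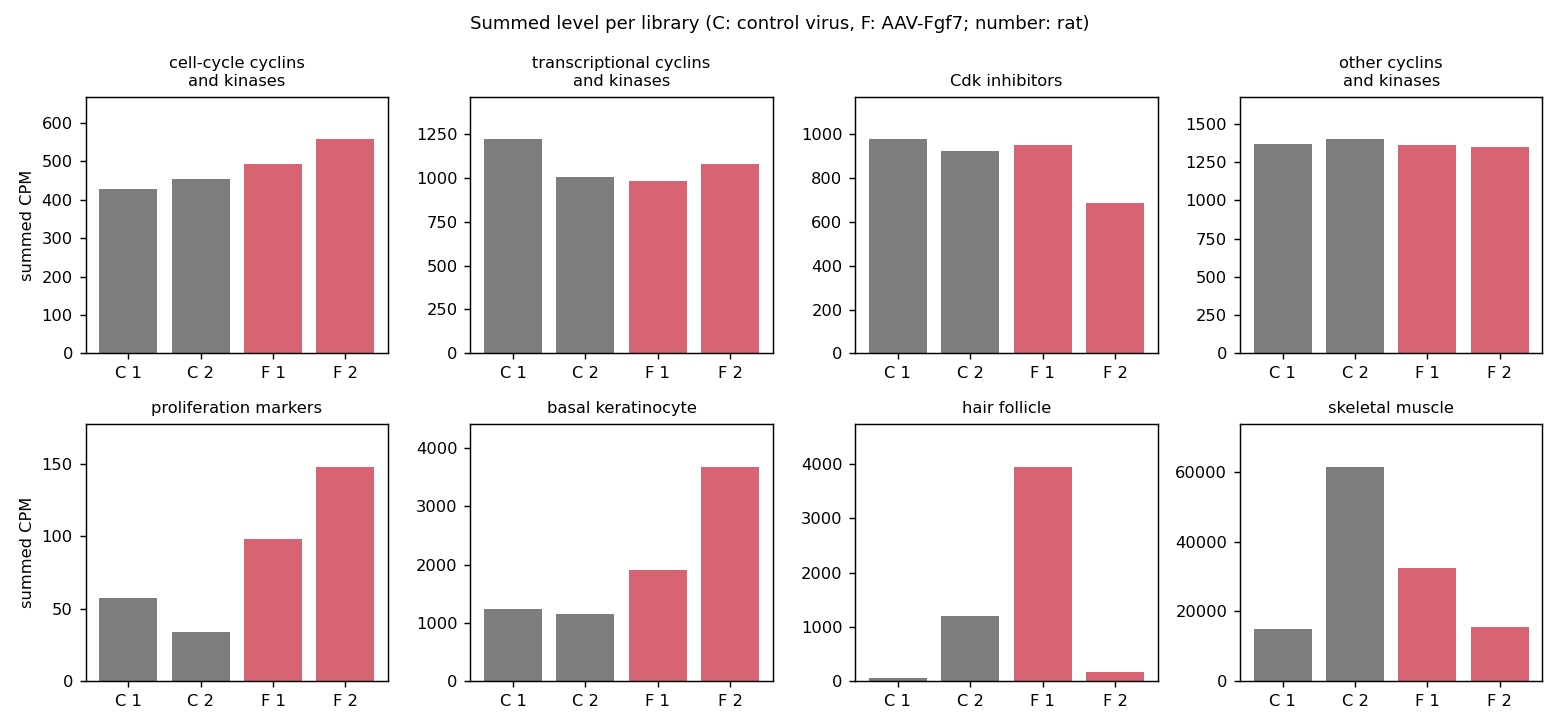
Summed CPM of each role of member (top row) and of 4 marker lists (bottom row) in each library, grey for control and red for AAV-Fgf7 ears, each panel on its own axis from 0. The cell-cycle sum goes from 428 to 557 CPM and the proliferation list from 33.9 to 148 CPM, with the treated ears higher. The hair follicle and muscle lists vary widely within each group, and their groups overlap.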

How the data were processed

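RNA-seq was made from ear skin of 2 rats, 1 library per ear. The authors deposited raw counts per gene and FPKM for the same genes; no source used here names the aligner or counter. The build named in the submitters' processing notes is Rnor_6.0 (rn6), yet all rows carry mouse Ensembl identifiers, and read loss under mouse models is unknown. Members and gene lists were chosen with earlier results of these data known. Both treated descriptions name one column, so the other treated column was given to rat 2, whose number it shares with the title. Titles and design text disagree on ear side, which was not used.

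Genes with few counts were left out by filterByExpr (edgeR 4.0.16, R 4.3.3), which kept 6370 of 12902 genes with a count. Libraries were scaled by TMM (0.948 to 1.03), and CPM are relative to the scaled counts of the genes kept. The two-sided edgeR quasi-likelihood test, Benjamini-Hochberg adjusted over all genes at 0.05, gave fold changes. SE is the log2 fold change over the root of F, and 95% intervals use the t quantile. DESeq2 1.42.0 and limma 3.58.1 were alternatives, and the scripts were tested on simulated data. At 2 against 2, the smallest p of an exact two-sided permutation test is 0.333. Each rat gave both ears, so libraries pair by animal, and deviations of same-numbered libraries correlated at r = -0.30 over genes. Here p-values measure the spread between these 4 libraries only. Limits for low counts cover counting error only. Named genes were every tested member and up to 4 tested genes of lowest p in each pathway list.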

Additional observations from a re-analysis of the deposited data

How the results depend on the processing

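Members called stayed at 0 in each of the 14 alternatives, including the replicate block by rat. Over all genes the count of 0 became 4 by DESeq2 and 3 with no filter beyond a count in 1 library, and ran from 0 to 19 when 1 library was left out (19 without the control of rat 1). With the replicate block it was 0, with 75 genes at an unadjusted p under 0.05 beside 148 without it, and the block changed no call of a member. A crossed block, added after seeing the data, also called 0, with 301 genes at an unadjusted p under 0.05.

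The median of the cell-cycle group, 0.20, was 0.24 with library totals only, 0.80 with no filter (13 members, 7 of them with few counts), 0.22 with the replicate block, and 0.15 to 0.46 with 1 library left out. Leaving out 1 library moved the transcriptional median from -0.25 to 0.12. The ratio of the summed level of other cyclins and kinases was 0.981 and became 1.01 with library totals only. With all 4 libraries, 233 of 234 member values kept their sign over 9 alternatives, the exception being Ccni at 0.01 with library totals only. With 1 library left out, values crossed 0 for Cdk16 (0.00 to 0.04), Ccni (-0.14 to 0.07), Cdkn1b (-0.01 to 0.19), Cdk13 (-0.27 to 0.21), Ccny (-0.26 to 0.04), Cdk8 (-0.10 to 0.39), Cdkn2c (-0.27 to 0.02), Cdk12 (-0.25 to 0.71), Cdk19 (-0.26 to 0.08), Ccnd2 (-0.25 to 0.72), Ccnk (-0.24 to 0.98), Cdk9 (-0.29 to 0.88), Ccng2 (-0.76 to 0.42) and Cdk17 (-0.80 to 0.77). In such fits the lone library of a group is assumed to vary like the others. The cause of these shifts was not tested. No scaling moved the median of all genes by over 0.04 on the log2 scale.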

Other observations

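Some rows that bear on Cdks lie outside the naming pattern, and these were picked after their values were seen. Cdkn3, which encodes a phosphatase of Cdks, had 2 and 1 raw counts in controls against 6 and 12 in treated ears, below the filter. Pkmyt1, an inhibitory kinase of Cdk1, had 4 and 3 against 8 and 6, and Cks2, a small Cdk-binding protein gene, had 5 and 6 against 8 and 1. Cdk2ap1, a Cdk2-binding protein gene, had a fitted log2 difference of 0.34 (SE 0.28), and the cyclin Y relative Ccnyl1 one of -0.18 (SE 0.25). Cdc25a had 4 and 4 raw counts in controls against 3 and 2 in treated ears, and by CPM both treated ears lay below both controls. Cks1b, Cdc25b and Cdc25c had 0 counts in every library.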
